A study of Mus musculus with 16 samples.

Results

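The circadian clock of mammalian cells was represented by 10 genes of the count table, chosen by their symbols: Per1, Per2, Per3, Cry1, Cry2, Arntl, Nr1d1, Nr1d2, Dbp and Ciart. All 10 were found among the 47593 genes of the table and all 10 passed the filter on low counts, which left 16553 genes to test. As background, the clock is a feedback loop of transcription. The proteins made from Arntl (BMAL1) and Clock bind E-box sequences and switch on the Per and Cry genes, whose proteins then hold back the same pair. The genes Nr1d1 and Nr1d2 encode REV-ERB alpha and beta, which repress Arntl through ROR elements and so form a further loop, Dbp encodes an output factor that binds D-boxes, and Ciart encodes a repressor of the BMAL1 and CLOCK pair. In tissues of intact mice the transcripts of Dbp, Nr1d1, Ciart and the Per genes rise and fall over the day, and Arntl runs opposite to them.

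Poly(A)-selected RNA of the cortex was sequenced in 16 libraries of 5xFAD mice, 4 in each of 4 groups. 5xFAD mice carry mutant human transgenes under the neuronal Thy-1 promoter, develop amyloid plaques, and were heterozygous on a C57BL/6 and SJL hybrid background. Chow with rapamycin, an inhibitor of the kinase mTOR, or with vehicle was given from 2 months of age, and the cortex was taken at 5 months after behavioural tests. Libraries are named FC (female vehicle), FR (female rapamycin), MC (male vehicle) and MR (male rapamycin) with their number in the labels. All groups carry the transgenes. Mice were housed in a light-dark cycle, and the hour at which tissue was collected is not given in the sources used here.

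Libraries held 16393501 to 20593089 read pairs counted to genes. The labels give a batch number without saying what it stands for: 11 libraries were of batch 1 and 5 of batch 2, the latter being FC4, MC4, FR4, FR5 and MR4. The library labelled MR4 went against its label, with 9935 read pairs of Xist, the transcript of the inactive X chromosome, and 0 read pairs from Y-linked genes. It was kept in its labelled group, and values without it are given where it decides a result. Markers of glutamatergic and GABAergic neurons, astrocytes and oligodendrocytes were all present, whereas a list of 4 genes of the suprachiasmatic nucleus and hypothalamus (Avp, Nms, Six6 and Lhx1) summed to at most 3.21 CPM in any library, CPM being the read pairs of a gene scaled to a normalized library total. The library MC4 stood apart by its choroid plexus genes, whose summed level was 1920 CPM against at most 319 CPM in the other 15. By smaller gaps, FR2 was highest in oligodendrocyte genes (7907 CPM against at most 5641 CPM in any other). FR1 was highest in striatum genes (273 against 177 CPM), and FC4 in thalamus genes, Rora among them (185 against 144 CPM). Whole tissue was measured, so fewer cells of a type and less RNA per cell cannot be told apart.

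Sequences before the start sites are shown for Ciart, Per1, Cry1, Per3 and Arntl, each holding a clock motif. Whether the motifs bear on how the genes varied between libraries was not tested. RefSeq windows of 300 bases (GRCm38.p6, 250 bases before and 50 after a start site) were at hand for 9 of the 10 genes, Per2 being the one without. The E-box CACGTG, read on both strands, was in 3 of the 9 genes (Ciart, Cry1 and Per1) against 7.15% of all 32851 windows, and Ciart alone of the 9 held it 3 times, as 0.0883% of windows did. The E-box variant CACGTT was in Cry1, Cry2 and Nr1d1 (4.68% of windows), the D-box TTANGTAA in Per3 (2.32%), the ROR element core TNGGTCA in Arntl, Cry2 and Per3 (11%) and the cAMP response element TGACGTCA in none (1.79%). Dbp and Nr1d2 held none of these motifs in their windows, and the stretches of Cry2 and Nr1d1 are not printed. These are matches of letters, not shown sites of binding. The 250 bases before a start site, 5′ to 3′ with the matched motif in capitals, read as follows for Ciart, Per1 and Cry1 (E-box), for Per3 (D-box) and for Arntl (ROR element core).
Ciart (chr3:95882229-95882478, minus strand): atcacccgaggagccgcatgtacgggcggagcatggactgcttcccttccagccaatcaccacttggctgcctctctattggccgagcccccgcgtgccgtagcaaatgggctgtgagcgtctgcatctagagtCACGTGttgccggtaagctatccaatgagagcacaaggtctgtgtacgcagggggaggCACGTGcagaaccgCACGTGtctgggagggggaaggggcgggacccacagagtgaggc
Per1 (chr11:69098699-69098948, plus strand): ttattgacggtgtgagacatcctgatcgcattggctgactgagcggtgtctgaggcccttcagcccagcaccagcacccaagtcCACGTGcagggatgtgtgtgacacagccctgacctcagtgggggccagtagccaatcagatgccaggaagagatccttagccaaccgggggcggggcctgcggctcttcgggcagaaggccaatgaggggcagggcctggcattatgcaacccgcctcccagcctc
Cry1 (chr10:85185055-85185304, minus strand): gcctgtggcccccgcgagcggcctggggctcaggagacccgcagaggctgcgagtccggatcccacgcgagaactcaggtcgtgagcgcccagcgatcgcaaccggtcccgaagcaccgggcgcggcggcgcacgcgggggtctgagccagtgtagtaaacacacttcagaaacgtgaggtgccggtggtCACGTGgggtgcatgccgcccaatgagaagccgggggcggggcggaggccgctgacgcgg
Per3 (chr4:151044666-151044915, minus strand): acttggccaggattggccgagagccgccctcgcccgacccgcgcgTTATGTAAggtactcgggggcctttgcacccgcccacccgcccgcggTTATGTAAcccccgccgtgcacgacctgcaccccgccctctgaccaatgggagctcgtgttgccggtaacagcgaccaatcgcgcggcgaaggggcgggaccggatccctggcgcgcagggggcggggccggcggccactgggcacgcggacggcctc
Arntl (chr7:113207215-113207464, plus strand): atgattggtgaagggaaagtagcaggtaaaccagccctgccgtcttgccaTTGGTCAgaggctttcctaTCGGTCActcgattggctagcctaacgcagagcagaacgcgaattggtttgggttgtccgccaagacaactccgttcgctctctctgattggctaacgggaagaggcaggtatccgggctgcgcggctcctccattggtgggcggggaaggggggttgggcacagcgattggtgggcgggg
The E-boxes of Ciart began 116, 58 and 44 bases before its start, that of Per1 166 and that of Cry1 60 bases before. Both D-boxes of Per3 had the letters TTATGTAA and began 205 and 158 bases before its start. The cores in Arntl were TTGGTCA and TCGGTCA, 200 and 181 bases before. A further window of Arntl (chr7:113207261-113207560) held the same cores 246 and 227 bases before its start and TAGGTCA 30 bases after it. Per1 also had a further window (chr11:69099902-69100201), without an E-box. Of the printed bases, 23 of the Ciart stretch and 1 of the Per1 stretch also lie in exons of the annotation used for counting.

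In GRCm38, as the count table gives their exons, Per1 spans chr11:69095217-69109960 (plus strand), Per2 chr1:91415982-91459324 (minus strand), Per3 chr4:151003652-151044665 (minus strand), Cry1 chr10:85131702-85185054 (minus strand) and Cry2 chr2:92403646-92434043 (minus strand). On the same build, Arntl spans chr7:113207465-113314122 (plus strand), Nr1d1 chr11:98767932-98775333 (minus strand), Nr1d2 chr14:18204054-18239127 (minus strand), Dbp chr7:45705247-45710203 (plus strand) and Ciart chr3:95878503-95882251 (minus strand). On a scale per exon length, the mean level over the 16 libraries was highest for Nr1d1, at 33.0 ± 10.1 CPM per kilobase (SD, n = 16), followed by Dbp at 31.7 ± 11.4, Cry2 at 24.6 ± 3.11, Per1 at 21.1 ± 7.94 and Nr1d2 at 20.3 ± 3.72 CPM per kilobase. Arntl stood at 11.7 ± 2.69, Cry1 at 7.91 ± 1.84, Ciart at 6.81 ± 4.74, Per2 at 6.78 ± 2.06 and Per3 at 4.38 ± 1.86 CPM per kilobase. Within this order, the steps from Nr1d2 to Arntl, from Arntl to Cry1 and from Per2 to Per3 were larger than either SD, and the other neighbours differed by less than the larger of their SDs. Read pairs were counted without regard to strand, and some exon bases are shared with a gene on the other strand. The methods do not say whether pairs on shared bases were kept or dropped, so such a level can be too high or too low. Exon bases shared in this way were 32.1% for Dbp (with Sphk2), 8.55% for Nr1d1 (with Thra) and 4.67% for Cry2. Sphk2 read 27.2 to 41.7 CPM, and after removal of sex, batch and treatment its log2 CPM ran opposite to that of Dbp (Pearson's r = -0.67 over 16 libraries).

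**Figure D1:**
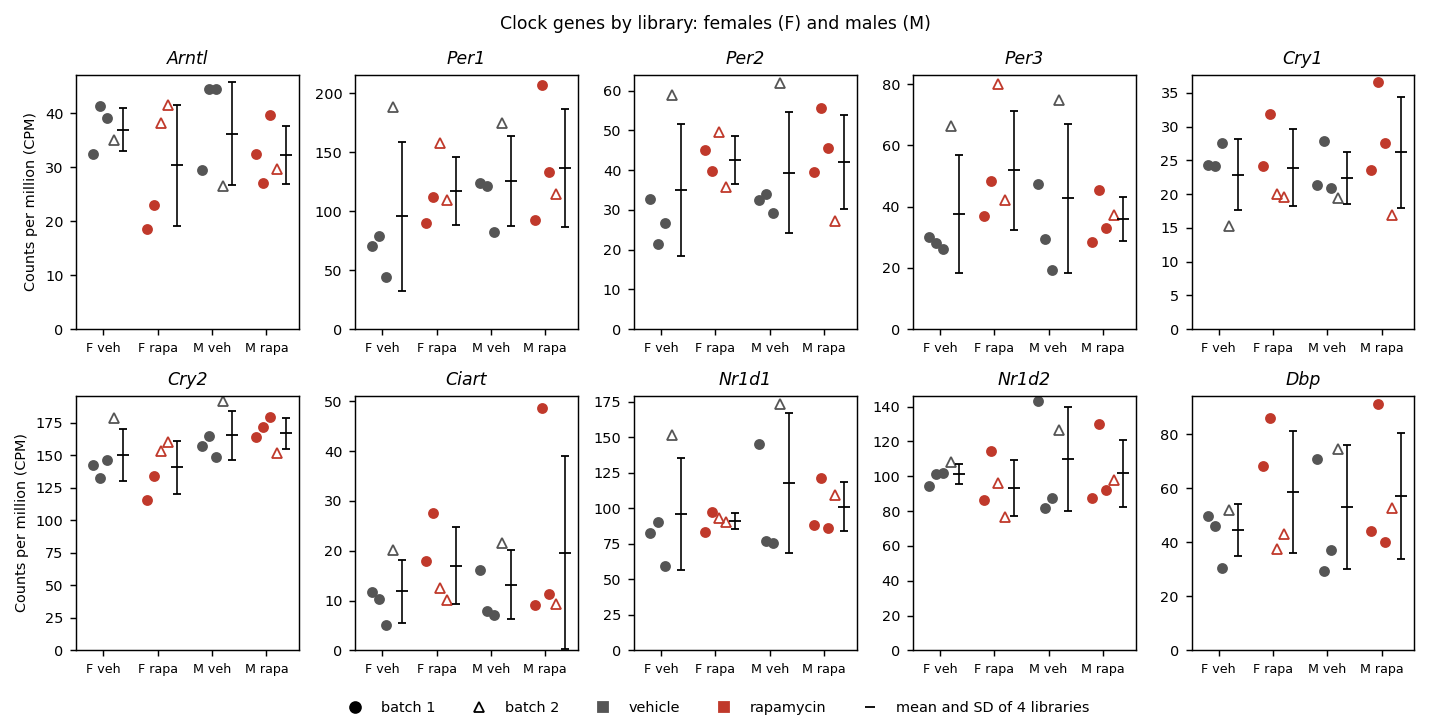
CPM (vertical axes, from 0) of the 10 clock genes in the 4 groups, each point 1 library, circles batch 1, open triangles batch 2, grey vehicle, red rapamycin, bars the mean and SD of 4 libraries. In female vehicle mice the Per3 value of FC4 (66.4 CPM) lies above the other 3, and Ciart reached 48.7 CPM in the male rapamycin library MR2.

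Whether dietary rapamycin changed the clock genes of the cortex was asked first over both sexes. None of the 10 genes passed edgeR's quasi-likelihood test with sex and batch as terms, 0 of 10 at an adjusted p under 0.05 and 0 at an unadjusted p under 0.05, against 13.3% and 30.4% of all genes tested. DESeq2 also called 0. The log2 fold change (rapamycin against vehicle) was positive for 6 genes and negative for 4, with a median of 0.16 against 0.02 over all genes tested. Among the repressors it was 0.22 for Per1 (95% interval -0.21 to 0.65), 0.21 for Per2 (-0.17 to 0.60), 0.11 for Per3 (-0.30 to 0.52) and 0.20 for Cry1 (-0.02 to 0.42), the last having the lowest adjusted p of the 10 in edgeR, 0.200. Cry2 was the most tightly bounded gene, at -0.06 (-0.22 to 0.10). The activator Arntl stood at -0.25 (-0.59 to 0.10), the REV-ERB genes Nr1d1 at -0.15 (-0.48 to 0.17) and Nr1d2 at -0.12 (-0.37 to 0.14), the output gene Dbp at 0.25 (-0.23 to 0.73) and Ciart at 0.55 (-0.25 to 1.35). These intervals leave room for changes in either direction in every gene.

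No member was called within either sex. In females 0 of the 10 genes passed the test in edgeR (background 0.0121% of genes) and 0 had an unadjusted p under 0.05 (background 23.1%). In males 0 of 10 passed (background 0%), with 0 unadjusted (background 12%). DESeq2 called 0 members in both. The largest difference in either sex was that of Ciart, 0.52 in females (95% interval -0.63 to 1.68) and 0.59 in males (-0.58 to 1.75). Single libraries decided these values of Ciart. In females it was 0.15 without FR2 and 1.04 without FC4, and in males it was -0.39 without MR2 and 0.98 without MC4. Per3 had opposite signs, 0.34 in females and -0.12 in males (from -0.34 without MR2 to 0.08 without MR4, with a positive sign in 3 of 16 fits that left out a library), but the difference between the sexes, tested by the interaction of sex and treatment, was 0.47 with an interval of -0.36 to 1.29. That interaction was called for 0 of 10 members, with 0 unadjusted, and for 0% of all genes (2.17% unadjusted).

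The direction of the difference was not the same in the batches. With batch 1 alone (6 vehicle and 5 rapamycin libraries) the log2 fold change was positive for 9 of the 10 genes, with Arntl the negative one. With batch 2 alone (2 vehicle and 3 rapamycin libraries, fitted without a sex term) it was negative for 8, with Arntl and Cry1 positive. In batch 2 MR4, like FR4 and FR5, had Xist reads and 0 Y-linked read pairs, whereas of the vehicle libraries MC4 had Y-linked reads. Diet and sex thus cannot be fully told apart in batch 2 alone. The sign differed between the batches for 9 of 10 genes, all but Cry1, as for 33% of all genes tested in both. Of these 9, Cry2 (0.0012) and Nr1d2 (0.0026) were close to 0 in batch 1. At an unadjusted p under 0.05 edgeR placed 5 members in batch 1 (background 28.7% of genes) and 6 in batch 2 (background 8.03%). At an adjusted p under 0.05 it called 1 member, Per2, in batch 1 (background 7.45% of genes) and 0 in batch 2 (background 0%).

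Per2, which encodes a period protein of the repressor complex, separated the diets in both batches and in opposite directions. In batch 1 the 6 vehicle libraries read 21.3 to 34.0 CPM (median 30.8), and the rapamycin libraries read 44.9 in FR1, 39.8 in FR2, 39.5 in MR1, 55.6 in MR2 and 45.4 in MR3. Every rapamycin library of batch 1 was thus above every vehicle library, as held for 2.22% of all genes. In batch 2 the vehicle libraries read 58.8 in FC4 and 61.8 in MC4 CPM and the rapamycin libraries 49.7 in FR4, 35.7 in FR5 and 27.3 in MR4. Here every rapamycin library was below both vehicle libraries, as held for 12.9% of genes, and the vehicle libraries of batch 2 were above all others in the series. The log2 fold change was 0.60 ± 0.12 (SE) in batch 1, with an adjusted p of 0.0344 in edgeR, and -0.68 ± 0.22 in batch 2 (adjusted p = 0.590 in edgeR). Lack of overlap in both batches with opposite directions was seen for 1 member, Per2, and for 0.0725% of all genes.

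Ciart, the repressor with 3 E-boxes before its start, had the largest differences. In batch 1 the vehicle libraries read 5.11 to 16.1 CPM (median 9.10) and the rapamycin libraries 17.9 in FR1, 27.5 in FR2, 9.16 in MR1, 48.7 in MR2 and 11.2 in MR3. The groups overlapped, since MR1 and MR3 lay inside the vehicle range and MR2, FR2 and FR1 above it. In batch 2 the vehicle libraries read 20.2 in FC4 and 21.6 in MC4 and the rapamycin libraries 12.4 in FR4, 10.1 in FR5 and 9.37 in MR4, all 3 below both vehicle libraries. The log2 fold change was 1.24 ± 0.40 (SE) in batch 1 and -0.97 ± 0.18 in batch 2, with adjusted p of 0.0695 and 0.590 in edgeR.

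Dbp and Arntl had opposite signs from each other in each batch. Dbp, the output gene, read 29.5 to 70.6 CPM (median 41.6) in the vehicle libraries of batch 1, and in the rapamycin libraries 68.1 in FR1, 86.1 in FR2, 44.3 in MR1, 91.1 in MR2 and 40.1 in MR3. MR2 and FR2 were above every vehicle library and MR1 and MR3 were near the vehicle median. In batch 2 Dbp read 51.8 in FC4 and 74.4 in MC4 with vehicle and 37.4 in FR4, 42.9 in FR5 and 52.5 in MR4 with rapamycin, where MR4 overlapped FC4 and FR4 and FR5 were below both vehicle libraries. Its log2 fold change was 0.59 ± 0.26 (SE) in batch 1 and -0.50 ± 0.21 in batch 2 (adjusted p = 0.150 and 0.594 in edgeR).

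Arntl, the activator, read 29.5 to 44.5 CPM (median 40.3) in the vehicle libraries of batch 1 and 18.6 in FR1, 23.1 in FR2, 32.6 in MR1, 27.2 in MR2 and 39.8 in MR3 with rapamycin. The 3 libraries high in Dbp, FR1, FR2 and MR2, were below every vehicle library in Arntl, and MR1 and MR3 were not. In batch 2 Arntl read 35.0 in FC4 and 26.5 in MC4 with vehicle and 38.2 in FR4, 41.6 in FR5 and 29.7 in MR4 with rapamycin, with overlap. The log2 fold change was -0.51 ± 0.16 (SE) in batch 1 and 0.26 ± 0.20 in batch 2 (adjusted p = 0.0604 and 0.729 in edgeR). In the females of batch 1 (FC1, FC2 and FC3 against FR1 and FR2) edgeR called 2 members, Arntl at -0.85 ± 0.21 (adjusted p = 0.0347) and Per2 at 0.65 ± 0.18 (adjusted p = 0.0479), with a background of 7.75% of genes. FR1 and FR2 also had 6.88% and 6.98% of read pairs from mitochondrially encoded genes, against 3.85% to 5.47% in FC1 to FC3. Diet and this feature cannot be told apart in this comparison.

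Per1, a period gene that also responds to neuronal activity and glucocorticoids, read 44.2 to 124 CPM (median 80.9) in the vehicle libraries of batch 1 and 89.99 in FR1, 112 in FR2, 92.2 in MR1, 207 in MR2 and 133 in MR3 with rapamycin. The groups overlapped, with MR2 the highest library of the series. In batch 2 it read 188 in FC4 and 175 in MC4 with vehicle and 158 in FR4, 109.9 in FR5 and 115 in MR4 with rapamycin, all 3 below both vehicle libraries. The log2 fold change was 0.51 ± 0.20 (SE) in batch 1 and -0.50 ± 0.18 in batch 2 (adjusted p = 0.120 and 0.590 in edgeR).

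Nr1d1, the gene of REV-ERB alpha, read 59.4 to 145 CPM (median 79.8) in the vehicle libraries of batch 1, with MC1 the highest, and 83.6 to 122 CPM (median 88.0) with rapamycin, inside the vehicle range. In batch 2 it read 152 in FC4 and 174 in MC4 with vehicle against 93.5 in FR4, 90.1 in FR5 and 109 in MR4 with rapamycin, without overlap. Its log2 fold change was 0.09 ± 0.18 (SE) in batch 1 and -0.73 ± 0.16 in batch 2 (adjusted p = 0.763 and 0.590 in edgeR). Nr1d2 and Cry2 likewise read lower with rapamycin than in both vehicle libraries of batch 2, which made 6 of the 10 members in all (Per1, Per2, Cry2, Nr1d1, Nr1d2 and Ciart) against 12.9% of all genes, and 0 members were higher there without overlap, as 13.3% of genes were. In batch 1 Per2 was the 1 member without overlap, and 0 members were lower there without overlap (background 2.37%). Per3 and Cry1 overlapped in both batches. MC4, 1 of the 2 vehicle libraries of batch 2, is the library with the high choroid plexus genes. FC4, the other, was highest in the thalamus genes. The part of these in the batch 2 values was not tested.

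The difference between the batches was tested itself, by the interaction of batch and treatment in edgeR, a test added after the batches had been seen to differ. It called 0 of the 10 members, against 0.0242% of all genes, and 6 members had an unadjusted p under 0.05, against 5.17% of all genes. The difference of log2 fold changes (batch 2 less batch 1) was largest for Ciart at -2.20 ± 0.65 (SE) and was -1.28 ± 0.27 for Per2, -1.09 ± 0.44 for Dbp, -0.96 ± 0.39 for Per1, -0.79 ± 0.29 for Nr1d1 and 0.74 ± 0.32 for Arntl. The adjusted p was 0.427 for Per2 and 0.914 for the other 5. Without FR4 the test called Per2, the 1 member so called in the 16 fits that each left out a library.

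**Figure D2:**
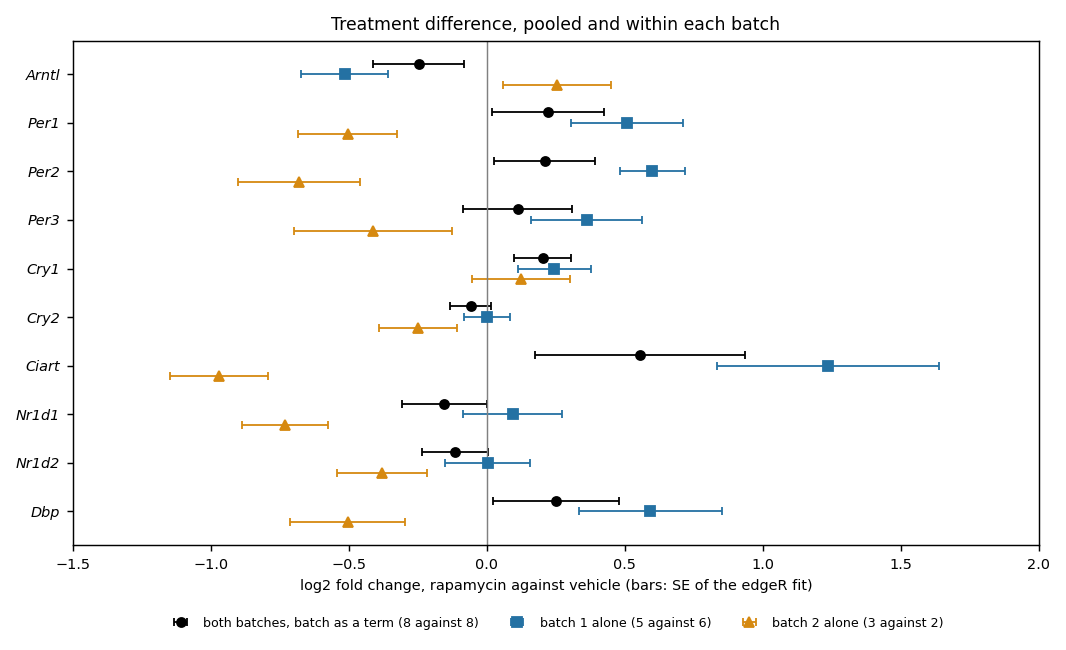
Log2 fold change of rapamycin against vehicle (horizontal axis, bars the SE of the edgeR fit) for each clock gene in both batches together (black circles), in batch 1 alone (blue squares) and in batch 2 alone (orange triangles). For Per2 the squares and triangles stand at 0.60 and -0.68 with the pooled value between them at 0.21, and Cry1 is the gene with 1 sign in all 3 fits.

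Most of the clock genes varied more between libraries than the median gene. After removal of sex, batch and treatment, the SD of log2 CPM was 0.86 for Ciart, higher than for 98.8% of the 14690 genes with a mean of at least 1 CPM. It was 0.54 for Dbp (92.8% of genes lower), 0.49 for Per1 (89.8%), 0.47 for Per3 (88.5%) and 0.44 for Per2 (86.2%). Arntl at 0.37 (79.6%), Nr1d1 at 0.36 (78.1%) and Nr1d2 at 0.27 (63.0%) followed. The cryptochromes were steady, with 0.21 for Cry1 (46.6%) and 0.14 for Cry2 (15.4%). The median of the 10 was 0.41 against 0.22 over all these genes, and 8 of 10 lay above the latter. Only a treatment difference common to both batches was removed, so diet differences of opposite sign in the batches stay in these SDs. In CPM, Ciart ranged 9.53-fold between its lowest and highest library, Per1 4.69-fold, Per3 4.17-fold and Dbp 3.09-fold, against 1.67-fold for Cry2.

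**Figure D3:**
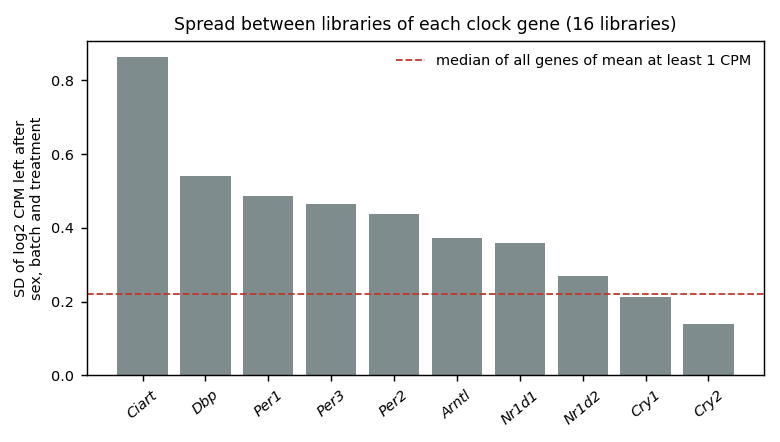
SD of log2 CPM after removal of sex, batch and treatment (bars, vertical axis from 0) for the 10 clock genes in 16 libraries, with the median of all genes of mean at least 1 CPM as a dashed line. Ciart stands highest at 0.86, and Cry1 (0.21) and Cry2 (0.14) are the bars below the line at 0.22.

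Much of this spread was shared. With sex, batch and treatment removed, the log2 CPM of Dbp followed that of Nr1d1 (Pearson's r = 0.89 over 16 libraries), Ciart (0.88) and Nr1d2 (0.79), and ran against that of Arntl (-0.83). Nr1d1 and Ciart were related at 0.89, Nr1d1 and Nr1d2 at 0.80, Per1 and Ciart at 0.83, and the 3 Per genes among themselves at 0.72 to 0.78. Arntl was negatively related to Nr1d1 (-0.67), Ciart (-0.64), Nr1d2 (-0.59) and Per3 (-0.54). The cryptochromes were less related to Dbp (-0.07 for Cry2 and 0.17 for Cry1). Cry2 reached 0.55 with Per2 and 0.41 with Per1, Cry1 reached 0.40 with Ciart and 0.39 with Per3, and the 2 were related to each other at 0.48. Diet differences of opposite sign in the batches were not removed and are part of these correlations. All libraries share their counting and scaling, and these values describe the 16 libraries.

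**Figure D4:**
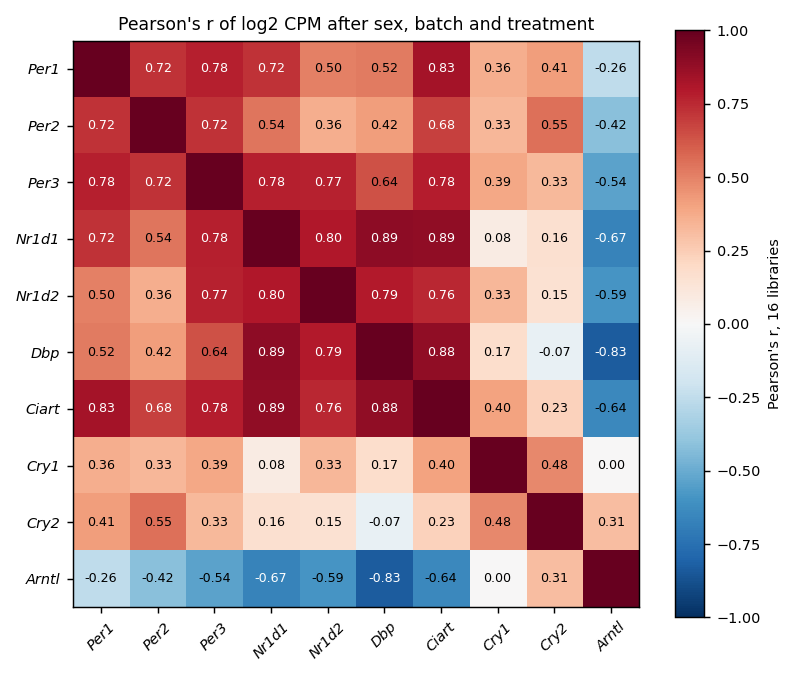
Pearson's r between clock genes (rows and columns) over 16 libraries, on log2 CPM after removal of sex, batch and treatment, red positive and blue negative. Nr1d1, Nr1d2, Dbp and Ciart form a block of 0.76 to 0.89, the row of Arntl is negative against it, and the rows of Cry1 and Cry2 are paler.

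On log2 CPM with nothing removed, Dbp and Arntl were related at r = -0.83 and Spearman's rho = -0.87 over 16 libraries, at r = -0.87 without the 2 libraries farthest from the median of Arntl, at r = -0.82 and rho = -0.85 in the 11 libraries of batch 1, and at r = -0.83 without MR4. Dbp and Ciart were related at r = 0.89 and rho = 0.84, and at 0.93 and 0.94 in batch 1. Other pairs were weaker over 16 libraries with nothing removed than after the removal. Nr1d1 was related to Dbp and to Ciart at r = 0.67 each. Arntl stood at -0.38 with Nr1d1, -0.42 with Nr1d2 and -0.36 with Per3, while Arntl and Ciart stood at -0.67. Batch 2 held 5 libraries, too few for a value of its own. The difference of log2 CPM, Dbp less Arntl, ordered the libraries along this line. It was highest in FR2 (1.90), FR1 (1.87), MR2 (1.74), MC4 (1.49) and MC1 (1.26), and lowest in MC2 (-0.59), FC3 (-0.36) and MC3 (-0.26). Both diets, both sexes and both batches were among the 5 highest. Of these, FR2, FR1 and MR2 are rapamycin libraries of batch 1, and the lowest, MC2, FC3 and MC3, are vehicle libraries of batch 1.

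**Figure D5:**
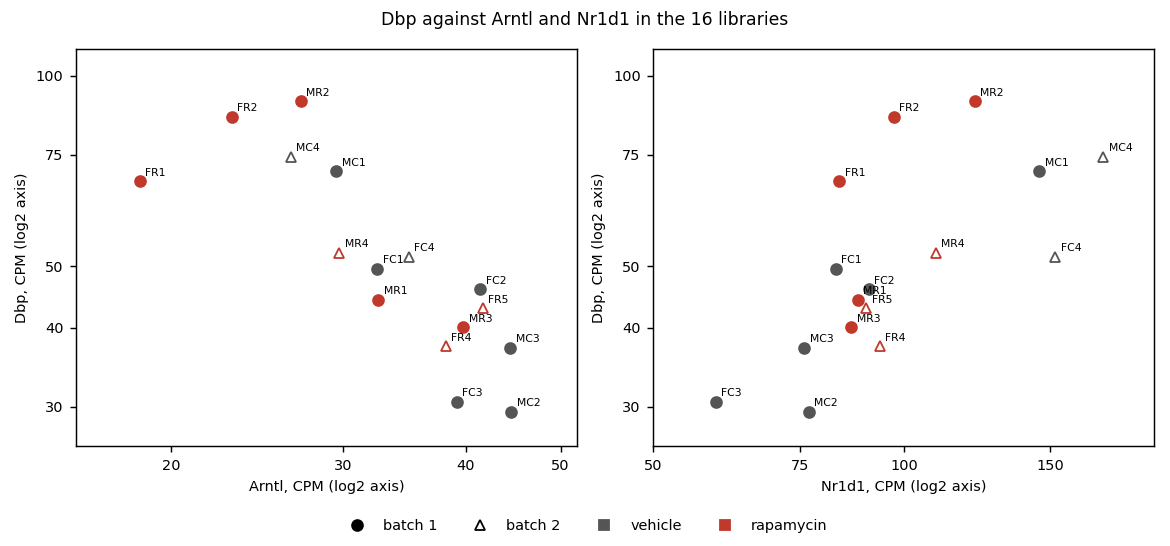
Dbp in CPM (vertical, log2 axis) against Arntl (left) and Nr1d1 (right, both log2 axes in CPM), each point 1 library with its name, circles batch 1, open triangles batch 2, grey vehicle, red rapamycin. In the left panel FR1, FR2 and MR2 (rapamycin, batch 1) lie at high Dbp and low Arntl. MC2 and FC3 (vehicle, batch 1) lie at 29.5 and 30.6 CPM of Dbp, and libraries of both diets lie between.

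Other features of the libraries stood out in the first 3 of this order. FR1, FR2 and MR2 had 6.88% to 6.99% of read pairs from mitochondrially encoded genes, against 2.64% to 5.47% in the other 13, and the lowest slopes of library level on exon length (-0.13 to -0.12 in log2 CPM per doubling of exon length, against -0.03 to 0.10). MC4 and MC1, next in the order, had shares of 2.64% and 4.28% and slopes of 0.10 and 0.02. With the exon length slope as a further term, the pooled log2 fold change of Dbp turned to -0.59, of Ciart to -0.70 and of Arntl to 0.11. That of Per2 was 0.17. The immediate early genes, a list of 9 transcripts induced by neuronal activity, summed to 471 to 1662 CPM with vehicle and 575 to 2359 CPM with rapamycin. They were highest in MR2, the library with the highest Per1, Cry1, Dbp and Ciart. Of these 9 genes 0 were called for rapamycin (13.3% of all genes). Of 8 glucocorticoid-induced genes 2 rose with rapamycin (6.46% of all genes were called higher), Tsc22d3 (log2 fold change 0.70, adjusted p = 0.0133 in edgeR) and Ddit4 (0.57, adjusted p = 0.0328), and the list summed to 224 to 407 CPM with vehicle and 303 to 583 CPM with rapamycin, highest in FR2. The part of these features and lists in the levels of the clock genes was not tested.

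Between the batches, with sex and treatment as terms, edgeR called 4 of the 10 members at an adjusted p under 0.05, against 35.5% of all genes, a share near theirs. Per3, a period gene, was higher in batch 2 by 0.82 ± 0.21 on the log2 scale (SE, adjusted p = 0.00572 in edgeR), reading 19.2 to 48.5 CPM (median 30.2) in batch 1 and 66.4 in FC4, 74.9 in MC4, 80.04 in FR4, 42.1 in FR5 and 37.2 in MR4 in batch 2. FC4, MC4 and FR4 were above every library of batch 1 and FR5 and MR4 within its range. Per1 was higher by 0.63 ± 0.22 (adjusted p = 0.0344 in edgeR) and Nr1d1 by 0.47 ± 0.17 (adjusted p = 0.0339), so 3 members were higher, against 19.1% of genes. Cry1 was the 1 member lower in batch 2, at -0.56 ± 0.12 (adjusted p = 0.00157 in edgeR), against 16.5% of genes. It read 20.9 to 36.6 CPM (median 24.3) in batch 1 and 15.3 to 20.02 CPM (median 19.4) in batch 2, without overlap. Every library of batch 2 was below every library of batch 1 for 2.48% of all genes and for 1 member, Cry1. With a fold change of at least 1.5 also required, 2 members (Per1 and Per3) were called, against 12.9% of genes. Leaving out 1 library gave between 1 and 6 members. The call of Cry1 held in all 16 such fits, that of Per3 was lost without MC4, where Cry1 was the 1 member called, and those of Per1 and Nr1d1 held in 9 and 12 fits, both being lost without FC1, FC3 or FC4, which left 2 members. Without MR4 edgeR called 6, Per2 and Cry2 being added.

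Between the sexes, female against male vehicle mice, edgeR called 0 of the 10 members (background 0.0121%), with 0 at an unadjusted p under 0.05 (background 3.55%) and 0 called in DESeq2. The log2 difference was negative, lower in females, for 8 of 10 genes. It reached -0.48 for Per1 (95% interval -1.11 to 0.15), which read 70.9 in FC1, 79.3 in FC2, 44.2 in FC3 and 188 in FC4 and 124 in MC1, 122 in MC2, 82.4 in MC3 and 175 in MC4. The groups overlapped through FC4, the batch 2 library of the female group.

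A further 21 genes of the clock were described from a fixed list, among them Clock and Npas2, whose proteins pair with BMAL1, the relative Arntl2, the ROR receptors, the kinases and ubiquitin ligases that act on PER and CRY proteins, and other D-box and E-box factors. All 21 were tested. For rapamycin in both sexes edgeR called 2 lower (background lower 6.86%) and 0 higher, and the median log2 fold change was -0.02. Rora, the gene of a ROR receptor that activates Arntl through ROR elements, was lower at -0.47 ± 0.15 (SE, adjusted p = 0.0435 in edgeR). It read 63.4 to 112 CPM (median 87.7) with vehicle and 34.9 to 99.1 CPM (median 64.9) with rapamycin, with overlap. Btrc, of a ubiquitin ligase that acts on PER proteins, was lower at -0.23 ± 0.07 (adjusted p = 0.0391 in edgeR), reading 153 to 184 CPM (median 167) with vehicle and 123 to 172 CPM (median 139.5) with rapamycin. Both had the same sign in each batch alone (Rora -0.52 and -0.46, Btrc -0.27 and -0.17), but stayed called in 6 and 5 of the 16 fits that each left out a library, and their log2 fold changes were -0.02 and -0.05 with the exon length slope as a term. Rora is also on the list of thalamus markers. Clock stood at -0.27 ± 0.09 with an adjusted p of 0.0622 in edgeR.

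In females, in males, in the interaction of sex and treatment and between the sexes edgeR called 0 of the 21, with 3 in females (background 23.1% of genes) and 0 in the other 3 comparisons at an unadjusted p under 0.05. Between the batches it called 1 of 21, against 35.5% of all genes. That was Arntl2, a relative of Arntl, which was higher in batch 2 at 1.26 ± 0.22 (SE, adjusted p = 0.000455 in edgeR) and was called in all 16 fits that each left out a library. Arntl2 read 2.77 to 7.89 CPM (median 3.65) in batch 1 and 7.52 to 16.4 CPM (median 11.2) in batch 2, where FR5 and MR4 were below FR2, the highest of batch 1.

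After removal of sex, batch and treatment, the correlation of the 21 other clock genes with Dbp ran from -0.79 (Npas2) to 0.78 (Usp2) over 16 libraries. Usp2, Bhlhe41 (0.73), Arntl2 (0.65) and the D-box factor Tef (0.61) were the 4 highest. Npas2, Btrc (-0.78), the cell cycle kinase gene Wee1 (-0.76) and the D-box repressor Nfil3 (-0.57) were the 4 lowest, and Clock stood at -0.56. Npas2 (0.81), Nfil3 (0.80) and Wee1 (0.76) followed Arntl. Over all 14689 other genes with a mean of at least 1 CPM, Nr1d1 and Ciart held ranks 3 and 4 of likeness to Dbp, and Dbp was the gene 2nd most opposed to Arntl. Arntl held rank 42 of opposition to Dbp. Ranks of likeness to Dbp were 50 for Nr1d2, 620 for Per3, 1418 for Per1, 2360 for Per2, 5092 for Cry1 and 7891 for Cry2. The 5 genes outside the 10 that were most like Dbp were Tspan4 (0.93), Deaf1 (0.91), AI854517 (0.87), Cep57 (0.87) and S100a6 (0.86). Those most like Arntl were Pcsk1 (0.91), Atcay (0.91), Tstd2 (0.86), Pcdhga5 (0.85) and Peli3 (0.85). These correlations and ranks also hold any diet difference of opposite sign in the batches.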

How the data were processed

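Cortical RNA of 16 libraries was enriched with oligo(dT), sequenced as 150 bp read pairs and deposited by the authors as raw counts of read pairs per gene. Per the methods and the labels, the authors trimmed 10 bases of each read with Trimmomatic 0.39, aligned with HISAT2 2.2.1 to GRCm38 and counted exons with featureCounts 2.0.3 without regard to strand. Groups were taken from diet and sex in the labels. Counts were normalized by TMM, filtered with filterByExpr at a minimum count of 10 and tested with edgeR 4.0.16 (glmQLFit and glmQLFTest, R 4.3.3), with sex and batch as terms, or with the 4 groups and batch for contrasts within a sex. The study's methods name DESeq2 without terms, so DESeq2 1.42.0 was an alternative. P-values were adjusted over 16553 genes by Benjamini-Hochberg, and a gene was called at an adjusted p under 0.05. The steps were tested on simulated data. Correlations used log2 CPM with a prior count of 2 and carry no p. Members and gene lists were chosen with earlier results of these data known. The genes named were all 10 members, those of the 21 other clock genes that passed a test or that a sentence turns on, and the 5 genes most like Dbp and the 5 most like Arntl. Motifs were searched in RefSeq windows with Python. The labels call libraries separate samples, while the study's text also speaks of pooled cortices, so p-values measure the spread between these libraries. Totals of 16393501 to 20593089 read pairs set the counting precision. No sign of pairing of libraries by replicate number was seen. The tables of single groups hold counts of the same libraries and were not used.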

Additional observations from a re-analysis of the deposited data

Results flagged for a closer look

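In female vehicle mice, Per3 in FC4 was 66.4 CPM while the other 3 libraries read 26.1 to 30.2 CPM. On log2 CPM the gap to the nearest took 0.843 of the whole range, above the 95% limit of Dixon's test for 4 libraries. FC4 is the batch 2 library of that group. In male rapamycin mice, Ciart in MR2 was 48.7 CPM while the others read 9.16 to 11.2 CPM (gap share 0.879, also on log2 CPM). MR2 also had the highest summed immediate early genes, 2359 CPM, and a mitochondrial share of 6.99%. The part of these in the value was not tested. Of 40 sets of 4 libraries examined 2 were marked, and chance marks about 1 in 20.

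Per2 is listed because every rapamycin library stood above every vehicle library in batch 1 and below both in batch 2. The difference of the log2 fold changes, batch 2 less batch 1, was -1.28, with an adjusted p of 0.427 in edgeR's test of the interaction, which is not past the threshold.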

How the results depend on the processing

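With rapamycin against vehicle in both sexes, edgeR called 1 member without the filter on low counts (Ciart) and 1 in batch 1 alone (Per2), against 0 in the reported fit. In females it called 1 without the filter (Ciart) and 2 in batch 1 alone (Per2 and Arntl), and in males 1 without the filter (Ciart). In batch 1 alone 7.45% of all genes were called in both sexes and 7.75% in females. In the reported edgeR fits the unadjusted p of Ciart was 0.16 in both sexes, 0.35 in females and 0.31 in males. The batch difference fell from 4 members (35.5% of all genes) to 2 with the fold rule (12.9% of all genes). It was also 2 with the exon length slope and 2 with the mitochondrial share as covariates. It ranged from 1 (without MC4) to 6 when 1 library was left out. The share of all genes called in the unfiltered, covariate and leave-out fits is not given here. The interaction of batch and treatment, added after seeing the data, ranged from 0 to 1 member when 1 library was left out. The other counts stayed within 1.5 times, 157 in all against 13 that did not.

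The pooled log2 fold change turned in sign in batch 2 alone for Per1 (-0.50), Per2 (-0.68), Per3 (-0.41), Arntl (0.26), Dbp (-0.50) and Ciart (-0.97). It turned in batch 1 alone for Cry2 (0.0012), Nr1d1 (0.095) and Nr1d2 (0.0026). With the exon length slope as a term it turned for Per1 (-0.076), Per3 (-0.021), Cry2 (0.050), Arntl (0.11), Dbp (-0.59) and Ciart (-0.70), and with the mitochondrial share for Per3 (-0.16), Arntl (0.16), Dbp (-0.46) and Ciart (-0.59). The cause was not tested. None of these reached an adjusted p under 0.05, and the highest mitochondrial shares and lowest slopes were those of 3 rapamycin libraries of batch 1.

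With a replicate block in place of batch, 0 members were called for rapamycin in both sexes, as without it. Libraries with the same number in different groups had residual correlations of -0.43 to 0.37 (median 0.03), over 0.1 in 7 of 21 pairs. Those with other numbers in different groups had -0.40 to 0.32 (median 0.01), over 0.1 in 24 of 75 pairs. No sign of pairing by number was seen. Batch was removed beforehand, so pairing that follows batch could not show. The unfiltered fit tested 30248 genes. With 2 vehicle libraries, batch 2 alone bears on little.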

Other observations

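The 8 temperature-responsive genes (Cirbp, Rbm3, Hspa1a, Hspa1b, Hspb1, Hsp90aa1, Hspa5 and Hsph1), some of which follow body temperature over the day, summed to 1271 to 2321 CPM with vehicle and 1276 to 1721 CPM with rapamycin. Hsp90aa1 alone read 657 to 1504 CPM of these sums. The log2 fold change with rapamycin was 0.41 for Cirbp, 0.57 for Rbm3, 0.62 for Hspb1 and 0.02 for Hspa5. It was -0.18 for Hsp90aa1, -0.24 for Hsph1, -0.04 for Hspa1a and -0.02 for Hspa1b, so the sum mixes directions. Of the 8, 0 were called for rapamycin (13.3% of all genes) and 1 was lower in batch 2 (16.5% of all genes). Astrocyte markers, 5 genes, summed to 2982 to 4488 CPM in batch 1 and 3552 to 5782 CPM in batch 2. Slc1a2 alone read 2283 to 4689 CPM of these sums. Of the 5, 1 gene, Aldh1l1, was called higher in batch 2 (19.1% of all genes).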
